A study of Nothobranchius furzeri with 8 samples.

Results

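Mitochondrial tRNAs encoded on the H strand downstream of ND4 were examined in brains of young and old African turquoise killifish, a vertebrate with a short life span. They are mito_tRNA-His-GTG, mito_tRNA-Ser-GCT and mito_tRNA-Leu-TAG, which lie as a cluster between the genes for the respiratory chain subunits ND4 and ND5, and mito_tRNA-Thr-TGT, which follows the cytochrome b gene. These 4 of the 23 mitochondrial entries, and of 72 tRNA anticodons in all, were chosen by their place in the vertebrate gene order. The rule uses no measured value, but earlier results of these data were known when the choice was made. Each has 1 entry in the deposited tables. Throughout, a name such as His-GTG stands for the mitochondrial tRNA of that amino acid and anticodon unless it is called nuclear.

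tRNA-seq had been carried out on 8 individual brains, from 4 old fish (39 wph, weeks post hatching) and 4 young fish (5 wph), and both sexes were equally represented, 2 and 2, at either age. The protocol text of the labels words the older age as 39–40 weeks. The methods name the strain MZM-0410 unless stated otherwise, whereas the nuclear tRNA names in the tables carry the strain name GRZ of the reference. No fish carried a transgene or received a treatment according to these sources. Whole brains were used, so that a change in the cell types present and a change in the tRNA per cell cannot be told apart.

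Vertebrate mitochondrial DNA is transcribed into long precursors that span many genes, and most messenger and ribosomal RNAs are released when the tRNAs lying between them are cut out. A nuclear-encoded enzyme then adds the 3′ terminal CCA to each tRNA, and mitochondrial aminoacyl-tRNA synthetases, also imported, attach the amino acid to it. The charged tRNAs serve the synthesis of a small set of respiratory chain and ATP synthase subunits made inside the organelle. His-GTG, Leu-TAG and Thr-TGT supply histidine, leucine and threonine to this synthesis. Ser-GCT is unusual in animals because it lacks the D arm of the cloverleaf. RefSeq annotation of the killifish mitochondrial chromosome places 3 tRNA genes and no other gene between ND4 and ND5, and 3 tRNA genes after cytochrome b with no protein gene behind them. It does not name them, and the identities were therefore taken from the vertebrate order. The annotation holds 23 tRNA genes in all, more than the list by vertebrate order. It therefore does not settle which gene after cytochrome b is that of Thr-TGT.

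The reads assigned to anticodons numbered between 717858 and 3112101 per brain, and mitochondrial tRNAs held between 55861 and 282705 of them. They took 9.08% ± 0.709 of all reads in old and 8.31% ± 0.418 in young brains (SD, n = 4 each), with overlapping ranges (two-sided exact permutation test, p = 0.114). The 4 tRNAs together held between 9678 and 49960 reads per brain. No 2 brains of one age agreed within sampling noise over the mitochondrial tRNAs (chi-square divided by its degrees of freedom, 18.4 to 94.4).

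To see how abundant each tRNA was and whether this differed with age, its reads were expressed as a share of the mitochondrial tRNA reads of the same brain. His-GTG was higher in old brains and Thr-TGT was lower, and for both the old and young brains did not overlap. Ser-GCT was higher on average, but its ranges overlapped, and Leu-TAG was at nearly the same level at both ages. The counts were tested in edgeR by quasi-likelihood, with p-values adjusted by Benjamini-Hochberg over all 69 anticodons fitted, and 2 of the 4 passed the threshold of 0.05. The test called 24.6% of all anticodons and 50.0% of the 22 mitochondrial ones. Higher in old brains were 13.0% of all and 27.3% of mitochondrial anticodons, against 1 of the 4, and lower were 11.6% of all and 22.7% of mitochondrial anticodons, against 1 of the 4. The share called among the 4 was thus no higher than among mitochondrial tRNAs in general. As a share of the reads of their own genome, 29.0% of all anticodons had old and young brains that did not overlap. Among mitochondrial anticodons this was 54.5%, against 2 of these 4.

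His-GTG took 6.67, 6.63, 6.64 and 6.29% of the mitochondrial reads in old males 1 and 2 and old females 1 and 2. In young males 1 and 2 and young females 1 and 2 it took 5.79, 5.702, 5.68 and 5.64%. Every old brain was above every young brain, and the young brains lay within a narrow band. The means were 6.56% ± 0.178 in old and 5.70% ± 0.0657 in young brains (SD, n = 4 each). The edgeR estimate was 1.15-fold higher in old brains, which is 0.20 on the log2 scale with an SE of 0.056 (adjusted p = 0.0207). This call was not kept by DESeq2 (adjusted p = 0.0642), by TMM normalization within each genome (adjusted p = 0.0922), or in edgeR without old male 1, young female 1 or young female 2 (adjusted p = 0.0778, 0.0665 and 0.0649). The estimate stayed between 0.14 and 0.31 over all 17 alternatives.

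Thr-TGT was the scarcest of the 4. It took 0.841, 1.01, 0.761 and 0.928% of the mitochondrial reads in old males 1 and 2 and old females 1 and 2, and 1.23, 1.298, 1.36 and 1.10% in the young brains in the same order. Every old brain was below every young brain. The means were 0.885% ± 0.108 in old and 1.25% ± 0.113 in young brains (SD, n = 4 each). Its estimate was −0.50 on the log2 scale with an SE of 0.11 (edgeR adjusted p = 0.00651), so that the level in old brains was 0.709 times that in young brains. It passed in every alternative run in edgeR or DESeq2, including each left-out brain, with log2 changes between −0.56 and −0.39. An exact permutation test of each anticodon, adjusted over all 69, gave 0.0986 for both His-GTG and Thr-TGT and called no anticodon. The smallest p it can give before adjustment is 0.0286.

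In percentage points, Ser-GCT varied most of the 4 between brains of one age. It took 6.44, 7.07, 5.14 and 6.44% of the mitochondrial reads in old males 1 and 2 and old females 1 and 2, and 5.52, 6.32, 4.82 and 5.32% in the young brains in the same order. Old female 1 lay below 3 of the young brains. The means were 6.27% ± 0.812 in old and 5.50% ± 0.624 in young brains, and the log2 change of 0.19 (SE 0.105) did not pass (edgeR adjusted p = 0.216). Without old female 1, the only old brain within the young range, the estimate was 0.28 and passed (edgeR adjusted p = 0.0371). As this run leaves out the overlapping brain, it cannot show a difference between the ages. In the other 16 of 17 alternatives Ser-GCT did not pass. The estimate with all brains was close to that of its neighbour His-GTG, with a wider error.

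Leu-TAG, one of the leucine isoacceptors of mitochondria, took 3.83, 3.40, 4.12 and 4.02% of the mitochondrial reads in old males 1 and 2 and old females 1 and 2. It took 3.71, 4.003, 3.85 and 3.46% in the young brains in the same order. The old and young ranges were almost the same. The log2 change was 0.03 (SE 0.078, edgeR adjusted p = 0.806). With TMM within each genome, which lowered the estimates of all 4 alike, it was −0.031.

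**Figure D1:**
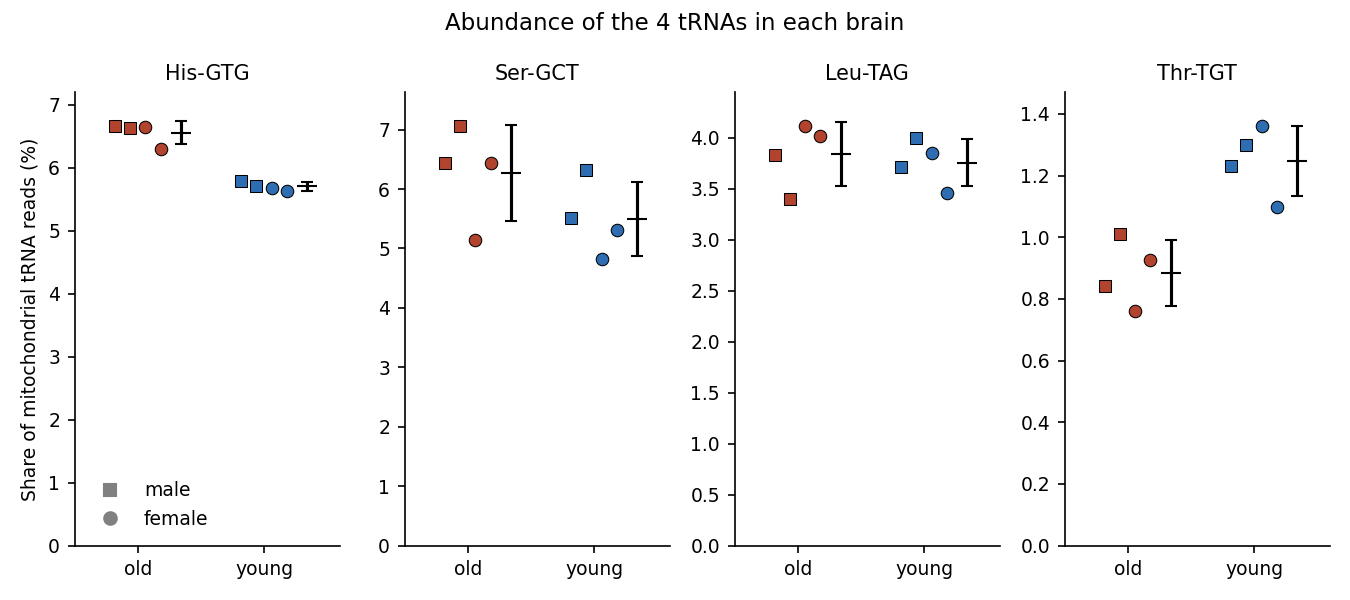
Share of the mitochondrial tRNA reads (%, axis from 0 and of different height in each panel) of the 4 tRNAs in each of 4 old and 4 young brains. Squares are males, circles are females, and the bars beside them give the mean and SD. His-GTG lies between 6.29 and 6.67% in old and between 5.64 and 5.79% in young brains, and Thr-TGT between 0.761 and 1.01% in old and between 1.10 and 1.36% in young brains.

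The 95% Wilson interval of a share was at most 0.385 points wide for His-GTG, 0.404 points for Ser-GCT, 0.325 points for Leu-TAG and 0.188 points for Thr-TGT. The mean differences between the ages were 0.856 points for His-GTG, 0.775 points for Ser-GCT, 0.086 points for Leu-TAG and −0.362 points for Thr-TGT, so that the difference of Leu-TAG was smaller than the width of its interval in each brain. PCR duplicates were not removed by a molecular identifier, so that these intervals cover counting error only. The spread of Ser-GCT over old brains, from 5.14 to 7.07%, was several times the width of its interval. Differences between brains, and not depth, limited the precision of this tRNA.

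The scale of reference matters for the size of these changes. Shares of one total are linked, so that a fall of some mitochondrial tRNAs raises the shares of others. When the same counts were scaled by TMM over all tRNA reads, the median log2 change of the 22 mitochondrial tRNAs was 0.14, against 0.031 on the mitochondrial scale. On that scale the log2 changes were 0.31 for His-GTG, 0.30 for Ser-GCT, 0.15 for Leu-TAG and −0.39 for Thr-TGT. Such a scaling shifts all mitochondrial tRNAs together, and TMM within each genome shifted their median to −0.034. Leu-TAG, which lay close to the median under each of these scalings, was the only one of the 4 whose sign differed between them.

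Within the cluster, His-GTG and Ser-GCT were read at similar levels and Leu-TAG at a lower one. The means over all 8 brains were 6.13% for His-GTG, 5.88% for Ser-GCT, 3.80% for Leu-TAG and 1.07% for Thr-TGT, which ranked 5, 7, 12 and 21 among the 23 mitochondrial entries. For comparison, the highest mean was 12.4%, for Val-TAC, and the lowest 0.0029%, for Gln-CTG. All are reads per tRNA of one size class with no correction for length or for how readily each tRNA is ligated and copied. His-GTG was above Ser-GCT in 5 of 8 brains only, so that these neighbours did not differ beyond their spread. Both were above Leu-TAG in 8 of 8 brains, and Leu-TAG was above Thr-TGT in 8 of 8.

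The neighbours were also set against each other within each brain, which removes the common total. There were 1.03, 0.938, 1.29 and 0.977 His-GTG reads per Ser-GCT read in old males 1 and 2 and old females 1 and 2, and 1.05, 0.902, 1.18 and 1.06 in the young brains in the same order. The ages overlapped. The same held for His-GTG over Leu-TAG, between 1.57 and 1.95 in old and between 1.42 and 1.63 in young brains, and for Ser-GCT over Leu-TAG, between 1.25 and 2.08 in old and between 1.25 and 1.58 in young brains. Thr-TGT, in contrast, gave 0.050, 0.059, 0.048 and 0.055 reads per read of the 3 cluster tRNAs summed in the old brains, and 0.082, 0.081, 0.095 and 0.076 in the young ones. Every old brain was below every young one, and the geometric means were 0.053 in old and 0.083 in young brains. These ratios were chosen after the values had been seen and are given as a description, with no p.

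Over the 8 brains, the tRNA that stayed in the most constant proportion to each of the 4 was not one of the others. The measure was the SD over 8 brains of the log2 ratio of reads, where a small value means that 2 tRNAs moved together. It was smallest between Leu-TAG and Val-TAC, with an SD of 0.069, where the median over the 21 other mitochondrial tRNAs was 0.23. His-GTG was closest to Leu-TAA, at 0.10 (median 0.17), as was Ser-GCT, at 0.16 (median 0.26). Thr-TGT was closest to Gly-TCC, at 0.17 (median 0.35). The nearest of the other 3 stood at 0.14 for His-GTG and Leu-TAG, which were nearest to each other, 0.17 for Ser-GCT and 0.34 for Thr-TGT. These values describe 8 brains that include both ages, so that a shared change with age is part of them.

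The design also allows the 4 to be set against mitochondrial tRNAs from other places in the genome. Of the 5 H-strand tRNAs from the rRNA genes to ND2, 1 rose and 4 did not pass, with a median log2 change of 0.070. Of the 5 from ND2 to ND4L, 3 fell and 2 did not pass, with a median of −0.22, and Asp-GTC among them had the largest fall outside the 4, at −0.76 on the log2 scale with an SE of 0.066 (edgeR adjusted p = 6.62e-06). Of the 8 on the L strand, 4 rose, 1 fell and 3 did not pass, with a median of 0.20. The largest rise was that of Asn-GTT, at 0.90 on the log2 scale with an SE of 0.12 (edgeR adjusted p = 0.00018). Among the 4 after ND4, 1 rose, 1 fell and 2 did not pass, and their median of 0.11 stood beside a median of 0.031 over all mitochondrial and 0.021 over all 69 anticodons. The fall of Thr-TGT was the fifth largest change in size among the 22 mitochondrial tRNAs, and the rise of His-GTG was number 12 in that order.

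**Figure D2:**
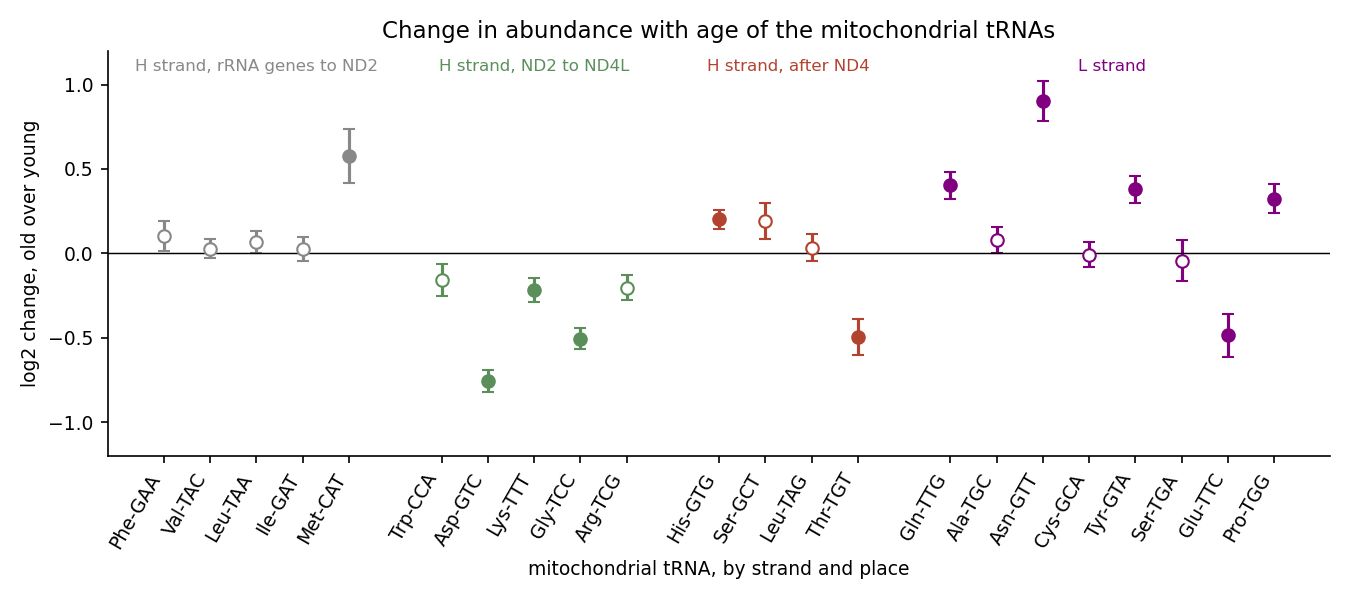
Change in abundance with age (log2, old over young, edgeR) of 22 mitochondrial tRNAs, grouped by strand and place in the vertebrate order. Bars are SE, and filled points have an adjusted p below 0.05. Among the 4 after ND4, in red, His-GTG is filled at 0.20 and Thr-TGT at −0.50, while Ser-GCT (0.19) and Leu-TAG (0.03) are open.

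Summed, the 4 took 17.8, 18.1, 16.7 and 17.7% of the mitochondrial reads in old males 1 and 2 and old females 1 and 2, and 16.2, 17.3, 15.7 and 15.5% in the young brains in the same order. The means were 17.6% ± 0.626 in old and 16.2% ± 0.812 in young brains, and young male 2 lay above old female 1. Most of these reads were His-GTG and Ser-GCT, so that the sum hides the fall of Thr-TGT. The tRNAs from ND2 to ND4L summed to 22.9% ± 0.120 in old and 29.0% ± 0.558 in young brains (SD, n = 4 each). The ages did not overlap in this share. Nor did they in that of the L strand, 24.1% ± 0.719 in old and 20.8% ± 0.911 in young brains. The log2 ratio of the 4 to the group from ND2 to ND4L was −0.39 ± 0.049 in old and −0.84 ± 0.087 in young brains, and the ages did not overlap. The lower share of that group in old brains enters this ratio, so the separation is not particular to the 4. Against the H-strand group before ND2 the ratio was −1.01 ± 0.108 in old and −1.07 ± 0.095 in young brains, and against the L strand −0.46 ± 0.018 in old and −0.36 ± 0.10 in young brains, both with overlap. No p is given for these sums and ratios, as the 4 had been chosen with results of these data known.

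The change with age was compared between the sexes, with 2 brains of each age and sex. Mean log2 shares differed between old and young by 0.19 in females and 0.21 in males for His-GTG, and by 0.18 in females and 0.19 in males for Ser-GCT. For Thr-TGT the differences were −0.54 in females and −0.46 in males. The ages also stayed apart within each sex for His-GTG and Thr-TGT, which follows from their lack of overlap over all brains. Leu-TAG differed by 0.16 in females and by −0.094 in males (exact permutation of ages within sex, two-sided p = 0.111). For the other 3 this p was at least 0.944. The 36 relabellings cannot give a p below 0.0556, so that no difference between the sexes could have passed.

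Next, the charged share was examined, to ask whether these tRNAs carried their amino acid to the same extent at both ages. RNA had been prepared under mildly acidic conditions that keep the amino acid on the tRNA, then oxidized and subjected to β-elimination, which removes the last base of a tRNA without an amino acid. Reads ending in CCA thus stand for charged and reads ending in CC for uncharged tRNA, and the charged share is CCA over CCA plus CC. Leu-TAG had the highest charged share of the 17 mitochondrial tRNAs for which every brain had at least 100 such reads. His-GTG and Ser-GCT were near the low end, at ranks 15 and 16, and Thr-TGT was at rank 11. None of the 4 passed the test for a change with age.

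Leu-TAG was charged to 93.3, 90.5, 93.5 and 95.5% in old males 1 and 2 and old females 1 and 2, and to 94.1, 91.6, 92.9 and 93.4% in the young brains in the same order. The ages overlapped, with means of 93.2% ± 2.06 in old and 93.0% ± 1.07 in young brains (SD, n = 4 each). It was the most highly charged of the 4 in 8 of 8 brains, by 28.0 points over His-GTG, 32.6 over Ser-GCT and 21.5 over Thr-TGT on average.

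Thr-TGT was charged to 64.2, 75.8, 74.8 and 63.1% in old males 1 and 2 and old females 1 and 2, and to 81.4, 69.5, 75.0 and 68.9% in the young brains in the same order. Old male 1 and old female 2 were below all young brains, and the other old brains were within their range. The means were 69.5% ± 6.75 in old and 73.7% ± 5.79 in young brains. Thr-TGT rested on the fewest reads, between 676 and 2612 per brain, with Wilson intervals up to 6.92 points wide.

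His-GTG was charged to 65.4, 62.1, 70.5 and 63.4% in old males 1 and 2 and old females 1 and 2, and to 68.3, 60.4, 69.96 and 60.8% in the young brains in the same order. The means were 65.4% ± 3.73 in old and 64.9% ± 4.96 in young brains, and the ages overlapped almost fully. Ser-GCT was charged to 57.9, 62.8, 62.1 and 61.9% in the old brains and to 69.4, 58.5, 58.8 and 52.8% in the young ones in that order. Young male 1 was highest and young female 2 lowest, so that the old range lay inside the young one. The means were 61.2% ± 2.24 in old and 59.9% ± 6.96 in young brains. Ser-GCT was below Thr-TGT in 8 of 8 brains and below His-GTG in 6 of 8.

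**Figure D3:**
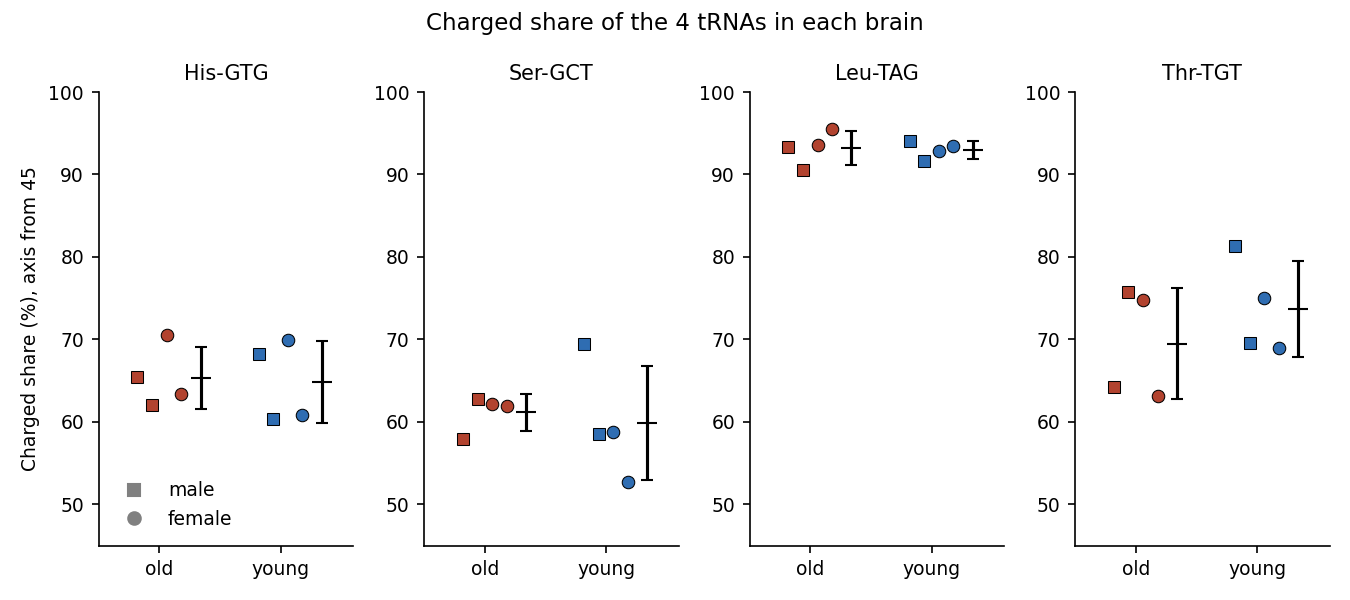
Charged share (%, reads ending in CCA over CCA plus CC; the axis starts at 45) of the 4 tRNAs in each of 4 old and 4 young brains. Squares are males, circles are females, and the bars give the mean and SD. Leu-TAG lies between 90.5 and 95.5% in all brains, and the old and young points overlap in each panel.

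The CCA and CC counts were fitted in edgeR with an effect for each brain, over the 64 anticodons above that minimum. The change in the log2 odds of being charged, old minus young, was 0.03 (SE 0.28) for His-GTG, 0.07 (SE 0.28) for Ser-GCT, 0.09 (SE 0.28) for Leu-TAG and −0.31 (SE 0.30) for Thr-TGT. The adjusted p-values were 0.947, 0.884, 0.847 and 0.414 in that order. Thus 0 of the 4 passed in edgeR, 0 had an unadjusted p below 0.05, and DESeq2 and limma also called 0. The edgeR fit called 1.56% of all anticodons, which is 1 of 64, and 0% of the 17 mitochondrial ones. Without old female 2 it called 37 anticodons, none of them among the 4. The median change was 0.049 for the 4, 0.060 for the mitochondrial and −0.58 for all anticodons.

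Taken as 1 pool, the 4 were charged to 70.7% ± 2.71 in old and 70.6% ± 4.30 in young brains, and the other mitochondrial tRNAs to 76.6% ± 3.15 in old and 74.2% ± 3.21 in young brains (SD, n = 4 each). The pooled shares of the 4 were 68.9, 68.8, 74.6 and 70.4% in old males 1 and 2 and old females 1 and 2, and 75.6, 67.96, 72.6 and 66.2% in the young brains in the same order. The direction of this small difference turned with the setting. It was −3.02 points with all end classes in the denominator and −1.70 points after scaling to the spike-in, an E. coli tRNA-Lys added as a mixture of CCA and CC ends. The CCA share of the spike-in was itself 78.8% ± 1.14 in old and 77.2% ± 0.468 in young brains.

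Each tRNA was also set beside the nuclear-encoded tRNAs for its amino acid, which are charged in the cytosol, in the same brain. The nuclear leucine tRNAs were charged to 52.9% ± 9.80 in old and 63.5% ± 4.97 in young brains (SD, n = 4 each), and Leu-TAG was above them in 8 of 8 brains, by 40.3 ± 9.18 points in old and 29.5 ± 4.39 points in young brains. Ser-GCT was above nuclear serine tRNAs in 8 of 8 brains, by 19.6 ± 7.54 points in old and 6.44 ± 4.36 points in young brains. Thr-TGT exceeded the nuclear threonine tRNAs by 11.1 ± 5.97 points in old and 10.1 ± 2.51 points in young brains, again in 8 of 8. His-GTG was above nuclear His-GTG in 3 of 4 old and 0 of 4 young brains, with gaps of 3.599 ± 11.9 points in old and −6.35 ± 3.51 points in young brains.

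The mean gap was higher in old brains for histidine, serine and leucine, and by only 0.98 points for threonine, with overlap between the ages in all 4 cases. Two-sided exact permutation tests of the gap gave p = 0.143 for histidine, 0.0857 for serine, 0.0857 for leucine and 0.857 for threonine. This comparison was added after the data had been seen, so these p-values are a description only. Without old female 1 the difference between the ages was 4.44 points for histidine and 7.02 points for leucine, against 9.95 and 10.8 points with all brains. With a brain left out, the differences ranged from 4.44 to 13.9 points for histidine, 11.3 to 16.9 for serine and 7.02 to 14.3 for leucine. The gaps of the ages stopped overlapping only where the overlapping old brain was itself left out. That was old female 2 for histidine and leucine, and old male 2 for serine. Such a run cannot show a difference between the ages. The charged shares of the nuclear tRNAs themselves differed, old minus young, by −9.46 points for histidine, −11.9 points for serine, −10.6 points for leucine and −5.19 points for threonine (exact p = 0.0857, 0.143, 0.114 and 0.314). Leu-TAA, a mitochondrial leucine tRNA outside the 4, was charged to 88.1% ± 2.66 in old and 86.8% ± 1.95 in young brains. Its mean gap to the nuclear leucine tRNAs was thus also higher in old brains, and the wider gap is not particular to Leu-TAG.

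Finally, all 4 classes of 3′ end were compared, as reads that end in C or in none of the listed ends do not enter the charged share. Leu-TAG had the highest mean share of CCA ends of the 23 mitochondrial entries, 83.4% over 8 brains. Ile-GAT was close, at 81.3% ± 4.15 in old and 82.7% ± 3.36 in young brains. Leu-TAG had 82.95% ± 4.65 in old and 83.9% ± 0.836 in young brains. In old males 1 and 2, young male 1 and young female 1, Ile-GAT was above Leu-TAG. His-GTG ranked 3 for reads ending in C, with a mean of 14.1% where the median over the mitochondrial entries was 4.35%. It had 16.2% ± 3.66 in old and 12.1% ± 2.97 in young brains. Gln-TTG had 17.3% ± 6.88 in old and 11.6% ± 3.02 in young brains, and Gly-TCC 14.7% ± 5.17 and 12.2% ± 2.15. Neither the level nor the higher mean in old brains was thus particular to His-GTG. Ser-GCT ranked 2 for reads ending in CC, with a mean of 33.7% against a median of 17.9%. Thr-TGT ranked 6 for CC ends (26.2%) and 17 for C ends (3.35%). These ranks and medians cover all 23 entries, including the 6 left out of the charged share for too few reads. Most of those 6 had nearly all their reads with none of the ends, which lowers the medians for CC and C.

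Reads of His-GTG ending in C made up 14.5, 19.3, 19.2 and 11.9% in old males 1 and 2 and old females 1 and 2, and 9.86, 14.0, 9.22 and 15.2% in the young brains in the same order. Old male 2 and old female 1 were above all young brains, and the others overlapped (exact p = 0.143). Reads of His-GTG with none of the ends were rare, at 2.73, 3.18, 3.58 and 2.49% in old and 1.84, 2.08, 1.78 and 2.37% in young brains. Here the ages did not overlap, and this was the only one of the 16 combinations of tRNA and end that reached the smallest possible p (exact permutation test, p = 0.0286). Over all mitochondrial entries and ends, 2 of 92 combinations, or 2.17%, did not overlap. The other 15 had exact p-values of at least 0.0857, and after correction over the 16 none passed. A single combination at the smallest possible p could not have passed this correction.

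Reads of Ser-GCT with none of the ends made up 8.81, 9.09, 11.7 and 4.86% in old males 1 and 2 and old females 1 and 2, and 4.83, 5.75, 4.46 and 5.15% in the young brains in the same order. Old males 1 and 2 and old female 1 were above all young brains, and old female 2 was within their range (exact p = 0.0857). For Leu-TAG this share was 8.35% ± 2.22 in old and 7.27% ± 1.03 in young brains, and for Thr-TGT 4.95% ± 1.70 in old and 4.01% ± 0.540 in young brains (SD, n = 4 each). CCA ends of Thr-TGT made up 63.5% ± 4.80 in old and 68.4% ± 5.75 in young brains, those of His-GTG 52.7% ± 3.07 in old and 55.8% ± 6.32 in young brains. Both overlapped between the ages (exact p = 0.229 and 0.400).

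**Figure D4:**
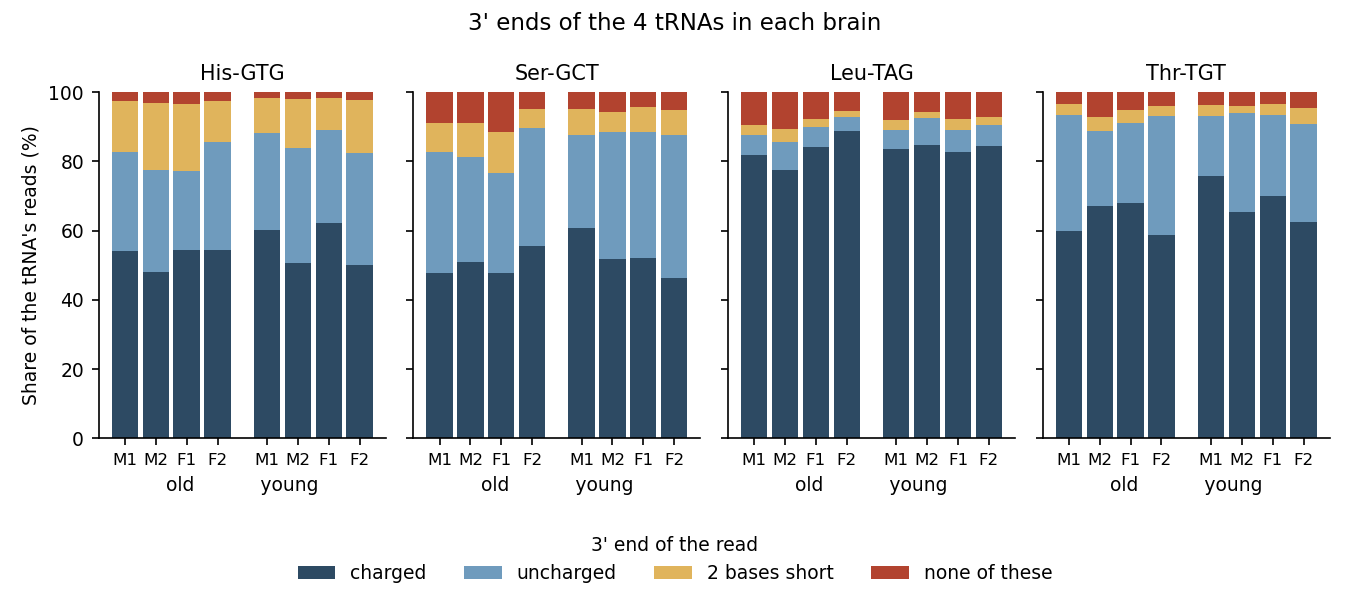
Share of the reads of each of the 4 tRNAs (%) by 3′ end, as charged (CCA), uncharged (CC), 2 bases short (C) or none of these, in 4 old and 4 young brains (M, male; F, female, with the replicate number). Leu-TAG reads end mostly in the charged form, and the part of His-GTG reads 2 bases short reaches 19.3% in old male 2.

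Shortened ends were also found among nuclear tRNAs, with the highest shares in old brains. Of the nuclear reads, 12.6, 12.1, 24.6 and 6.71% ended in C in old males 1 and 2 and old females 1 and 2, and 4.87, 8.58, 6.35 and 9.20% in the young brains in the same order. Among the old brains, old female 2 was lowest in this respect, as it was for the C ends of each of the 4 tRNAs. Old female 1 was highest, as for Ser-GCT only, whereas old male 2 was highest for His-GTG, Leu-TAG and Thr-TGT. Over all mitochondrial reads, those with none of the ends made up 8.82% ± 1.65 in old and 6.67% ± 0.536 in young brains (SD, n = 4 each). Of the spike-in reads, 1.72% ± 0.175 in old and 1.72% ± 0.128 in young brains ended in C. Per the methods the spike-in was added after oxidation and β-elimination, so its ends cannot show shortening from those or earlier steps. The part of such shortening in the values of the 4 tRNAs was not tested.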

How the data were processed

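Per the methods, individual brains were snap-frozen, and RNA was oxidized, β-eliminated, given an E. coli tRNA-Lys spike-in, size-selected and ligated to barcoded adapters. The authors removed adapters and barcodes with cutadapt 3.5, and aligned to nuclear and mitochondrial tRNAs by mim-tRNAseq 1.3.8. The deposited values are raw counts of reads per anticodon, and per transcript and 3′ end, without normalization. No per-sample column was left unused (0).

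Ages, sexes and replicates came from the labels. Here, counts were fitted with edgeR 4.0.16 in R 4.3.3, with the mitochondrial or nuclear total of the brain as library size keeping anticodons that reached 10 counts in 4 or more brains. The SE was derived from the estimate and its F value. Charging was fitted on CCA and CC counts with an effect per brain. Exact permutation tests used 70 relabellings. Alternatives were DESeq2 1.42.0, limma 3.58.1 with 0.5 added, other scalings, filters, minimums of 20 or 500 reads, sex, the replicate block and leaving out each brain. Python 3.11.15 with scipy 1.17.1 was used. Both fits were tested on simulated data. The planted changes were larger than the abundance estimates of His-GTG, Ser-GCT and Leu-TAG and than the charging estimates of all 4. Changes of those smaller sizes were not simulated.

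Named tRNAs are the 4, the most similar mitochondrial tRNA to each, the largest rise and fall elsewhere, and the highest and lowest. A few others are named where they stood close to one of the 4 in a comparison. The members and lists were chosen with earlier results of these data known.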

Additional observations from a re-analysis of the deposited data

Results flagged for a closer look

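The share of His-GTG among the mitochondrial reads was 6.29% in old female 2, apart from the other 3 old brains, which lay between 6.63 and 6.67%. It was still above every young brain. Reads of His-GTG ending in CCA made up 48.1% in old male 2, whereas the other 3 old brains lay between 54.1 and 54.4%. Both were picked out because the gap to the nearest brain exceeded Dixon's 95% critical value for 4 samples. They were 2 of 60 groups of 4 brains checked, and chance picks out about 1 in 20.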

How the results depend on the processing

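In abundance, 2 of the 4 tRNAs passed. With TMM within each genome and with DESeq2 the count was 1, with the exact permutation test 0, and with a brain left out between 1 and 3. The 3 came without old female 1. In the main fit 11 mitochondrial and 17 of all 69 anticodons passed. These counts were 11 and 17 with TMM within each genome, and 10 and 18 with DESeq2. The exact test called 0 mitochondrial and 0 of all anticodons. Its smallest p before adjustment is 0.0286, so that even the 20 of 69 anticodons without overlap of the ages could not pass it. With a brain left out, between 7 and 11 mitochondrial and between 10 and 19 of all anticodons passed. The log2 change of Leu-TAG was −0.031 with TMM within each genome and between −0.0034 and 0.088 with a brain left out. The log2 difference of the summed share was 0.12. It was 0.24 relative to all tRNA reads and 0.077 with Ser-GCT left out of the sum, both without overlap of the ages, and 0.39 per spike-in read and 0.068 with His-GTG left out, both with overlap. Means of log2 reads in place of sums gave −0.18 against the H strand before ND2, where sums had given 0.058, so that the sign turned. Against the L strand they gave −0.21, where sums had given −0.097, and the ages no longer overlapped. With a brain left out the L-strand difference lay between −0.14 and −0.070, and without young female 2 the ages did not overlap. Leaving out a brain gave between −0.085 and 0.072 for His-GTG over Ser-GCT.

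The number of all anticodons called in charging was 1. It was 0 with all end classes and with exact tests, and between 0 and 37 with a brain left out (37 without old female 2, none of them among the 4). With all end classes the log2 odds changed by −0.18 for His-GTG, −0.13 for Ser-GCT and −0.055 for Leu-TAG. With a brain left out they ranged from −0.086 to 0.14 for His-GTG, from −0.073 to 0.27 for Ser-GCT and from −0.11 to 0.28 for Leu-TAG. The pooled charged share differed by −3.02 points with all end classes, −0.54 points as a mean of the 4 shares, −1.70 points scaled to the spike-in, and between −1.36 and 1.77 points with a brain left out. The threonine gap to nuclear tRNAs differed by between −1.90 and 2.58 points with a brain left out. The cause of these differences was not tested.

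Samples of 1 sex share replicate numbers across ages, but are different fish. Deviations of same-numbered brains correlated between −0.34 and 0.51 for abundance and between −0.59 and 0.76 for charging, so the numbers were not taken as pairs. With the replicate block, 2 of the 4 passed in abundance, 0 anticodons passed in charging, and the log2 ratio to the tRNAs from ND2 to ND4L differed by 0.46, where the smallest p of the sign-flip test is 0.125.

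Counting intervals of single brains were wider than the age difference for Leu-TAG in abundance, and for His-GTG, Ser-GCT and Leu-TAG in charging. For Thr-TGT the charging difference was −4.21 points, and the interval was wider than that in some brains, up to 6.92 points. Thr-TGT rested on the fewest reads. The count headers of all brains carry the same library tag, and per the methods ligated samples were pooled before reverse transcription. Nothing in the labels says whether brains were processed in batches before that step.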
